A study of Mus musculus with 16 samples.

Results

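The Rel/NF-κB subunits and their inhibitors are described here as 10 genes: *Rela*, *Relb*, *Rel*, *Nfkb1*, *Nfkb2*, *Nfkbia*, *Nfkbib*, *Nfkbie*, *Nfkbiz* and *Bcl3*. They were taken by symbol from a table of 52636 gene entries, all 10 were found, and all 10 were above the detection limit in each of 16 libraries. The libraries came from RAW 264.7 cells, a mouse macrophage-like line, transfected with 25 nM of a control siRNA or of an siRNA against *Cebpb*, which encodes the transcription factor C/EBPβ. Cells then received no stimulus or isoproterenol, an agonist of β-adrenergic receptors at a dose and for a time that the sources used here do not state. The groups were control siRNA, Cebpb siRNA, control siRNA with isoproterenol and Cebpb siRNA with isoproterenol. Each held 4 libraries, 2 from each of 2 experiments. All of them were transfected, so no untransfected cells serve as a baseline. The title of the series asks how C/EBPβ bears on alternative (M2) activation of macrophages stimulated through these receptors.

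NF-κB proteins bind DNA as dimers that share a Rel homology domain. RelA, RelB and c-Rel carry activation domains, whereas p50 and p52 are cut from the precursors encoded by *Nfkb1* and *Nfkb2* and carry none. IκBα, IκBβ and IκBε, from *Nfkbia*, *Nfkbib* and *Nfkbie*, hold the dimers in the cytoplasm until IκB kinase marks them for degradation. The atypical members IκBζ (*Nfkbiz*) and Bcl-3 act in the nucleus, mostly on p50 or p52 dimers. Several of these genes are themselves targets of NF-κB, which in macrophages drives cytokine, chemokine and survival genes.

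The libraries held 9.42 to 25.17 M reads (10⁶ reads), and 5.81 to 15.9 M of these were counted on genes. The shallowest was replicate 2 of experiment 2 of Cebpb siRNA. *Cebpb* itself (chromosome 2, 167688915 to 167690418) averaged 76.1 ± 11.2 reads per 10⁶ reads (RPM; SD, n = 4) with control siRNA and 22.9 ± 8.83 RPM with Cebpb siRNA. With isoproterenol it averaged 92.1 ± 10.3 and 26.5 ± 2.04 RPM, and its log2 fold change was −1.73 ± 0.19 (SE) in both comparisons. All 12 macrophage markers looked for were detected, including *Csf1r* and *Lyz2*, while 21 of 24 markers of other cell types were listed at 0 in all 16 libraries. The summed level of the macrophage markers ran from 2129 to 2689 RPM with control siRNA and from 2729 to 3023 RPM with Cebpb siRNA. With isoproterenol it ran from 2771 to 3259 and from 3027 to 3613 RPM. The summed markers of other cell types stayed between 3.61 and 10.7 RPM. Mitochondrial transcripts took 3.01 to 3.53% of all reads with control siRNA and 4.25 to 4.64% with Cebpb siRNA. With isoproterenol these shares were 3.65 to 3.83% and 4.75 to 6.36%, and the part of these shifts in the results below was not tested. In bulk RNA, fewer cells of a kind and less RNA per cell cannot be told apart.

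After Cebpb siRNA, 9 of the 10 genes were higher than after control siRNA, both without and with isoproterenol, and none was lower. The exception was *Nfkbib*. The increases without isoproterenol ran from 1.203-fold for *Rela* to 2.74-fold for *Bcl3*. *Relb*, *Rel*, *Nfkbie*, *Nfkbiz* and *Bcl3* were each more than 2-fold higher. For the same 9 genes, all 4 Cebpb siRNA libraries lay above all 4 control siRNA libraries in both states. Of 11060 genes tested, 30.9% were higher and 30.4% lower without isoproterenol, and 31.6% were higher and 30.3% lower with it. The share of tested genes that were higher with no overlap between groups was 17.6% without isoproterenol and 20.4% with it. The median log2 fold change of the 10 genes was 0.86 without and 0.71 with isoproterenol, against 0.01 and 0.02 over all genes tested. Genes were tested with limma and p-values adjusted over all 11060 genes, with a threshold of 0.05. The genes were chosen with earlier results of these data known, and their count describes these libraries only.

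**Figure D1:**
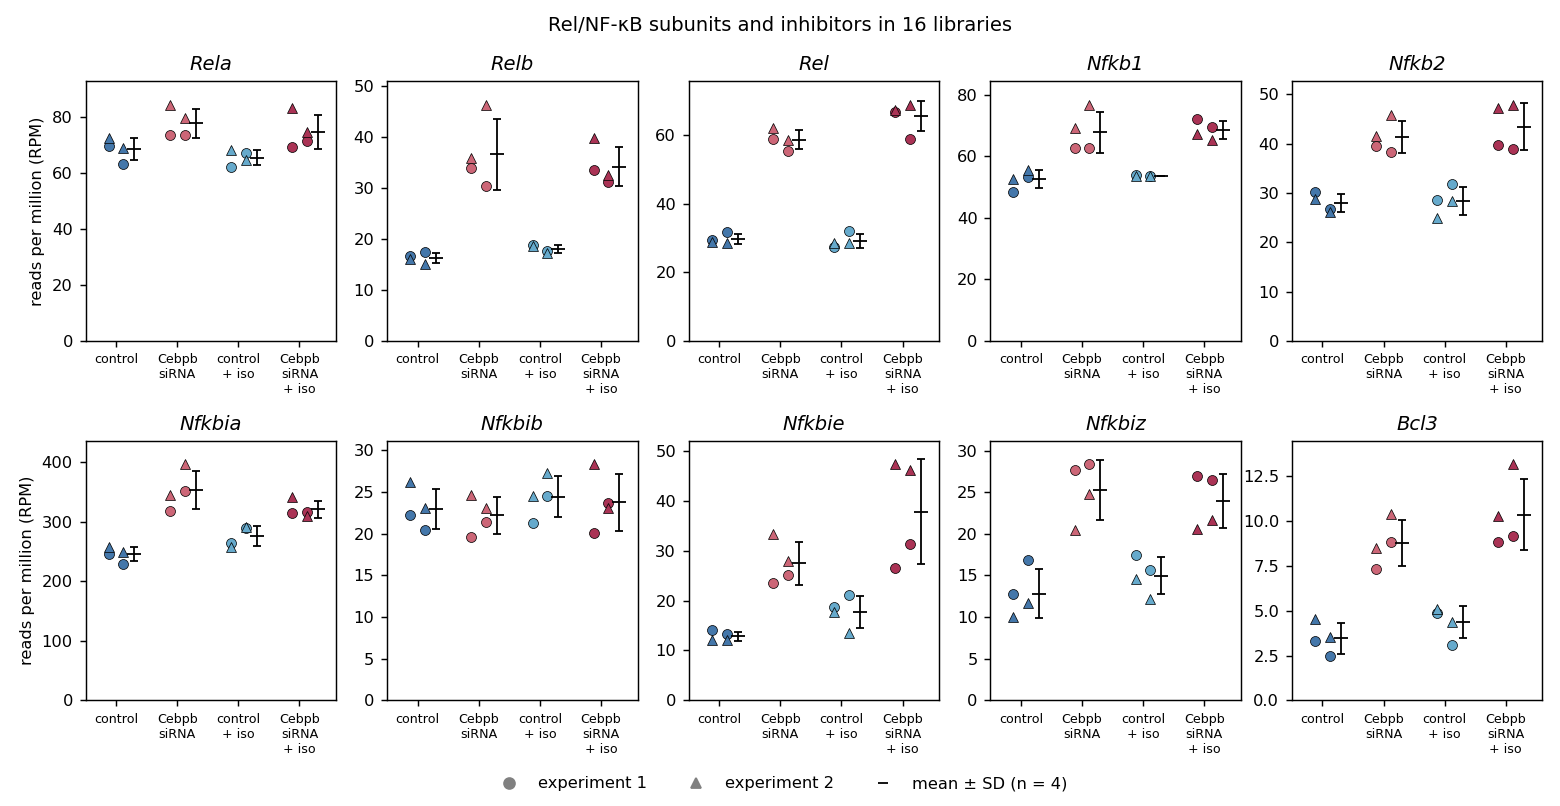
Levels of the 10 genes in RPM (linear axes from 0) in each of the 16 libraries, by group; circles are experiment 1, triangles experiment 2, and bars the mean ± SD of 4 libraries. Cebpb siRNA libraries lie above control siRNA libraries for 9 genes in both states, and *Nfkbib* stays between 19.6 and 28.3 RPM throughout.

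Because genes of this family are known to answer to NF-κB themselves, their promoters were read from RefSeq on GRCm38.p6, as windows from 250 bases before to 50 bases after each listed start. Entries were found for 7 of the 10 genes, all except *Relb*, *Nfkb1* and *Nfkbiz*. The κB consensus of 10 bases occurred on either strand in 5 of the 7, namely *Rel*, *Nfkb2*, *Nfkbia*, *Nfkbie* and *Bcl3*, and not in the windows of *Rela* and *Nfkbib*. It occurred in 6.01% of 8386 tested genes with a window, and in 4.51% of all 32851 windows. The stretches around the matches show how closely they lie to the starts. Each is on the strand of the gene, with the matched bases in capitals. *Nfkb2* has 3 listed starts, and the first is given, which has 2 separate matches just before it.
Rel, chr11:23771016-23771096, minus strand: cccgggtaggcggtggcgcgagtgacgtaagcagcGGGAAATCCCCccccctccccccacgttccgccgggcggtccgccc
Nfkb2, chr19:46304663-46304770, plus strand: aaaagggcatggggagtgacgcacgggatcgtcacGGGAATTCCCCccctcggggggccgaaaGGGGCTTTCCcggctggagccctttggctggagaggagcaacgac
Nfkbia, chr12:55492632-55492711, minus strand: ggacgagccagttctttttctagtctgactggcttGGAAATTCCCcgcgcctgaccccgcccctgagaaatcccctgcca
Nfkbie, chr17:45555559-45555638, plus strand: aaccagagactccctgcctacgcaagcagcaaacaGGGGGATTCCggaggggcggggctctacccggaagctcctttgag
Bcl3, chr7:19822709-19822788, minus strand: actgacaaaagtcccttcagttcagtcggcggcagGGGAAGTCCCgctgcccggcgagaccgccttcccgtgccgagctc
In *Rel* and in the first match of *Nfkb2* the capitals run over 11 bases because matches on both strands overlap. All 5 genes with a match were higher after Cebpb siRNA, and so were *Relb*, *Nfkb1* and *Nfkbiz*, which have no window. Of the 2 without one, *Rela* was 1.203-fold higher and *Nfkbib* did not pass the test. Whether a match goes with the change after Cebpb siRNA was not tested. A match is a description of letters and shows no binding.

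**Figure D2:**
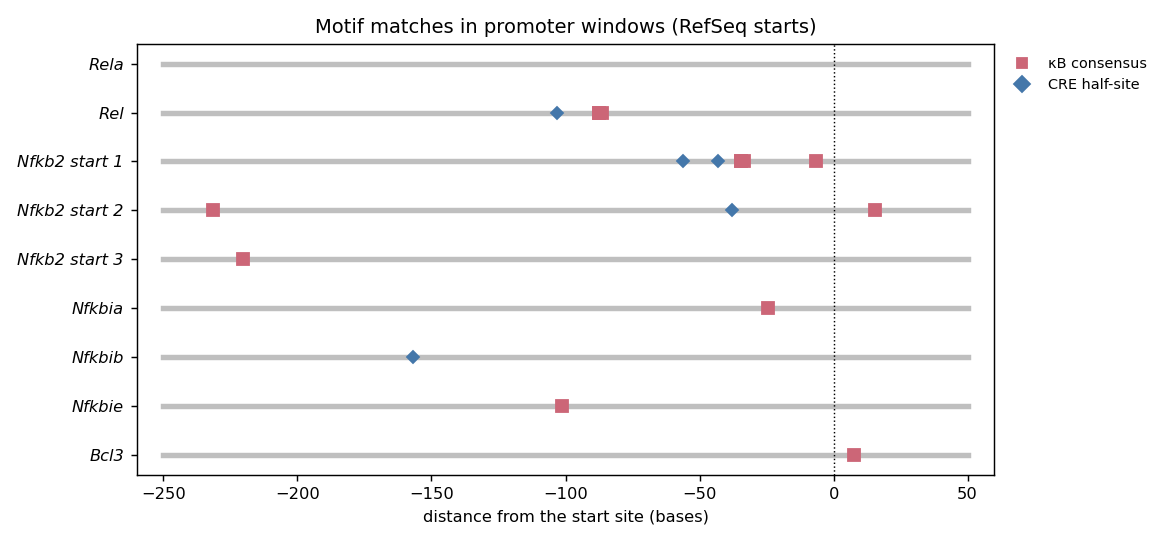
Positions of motif matches in the promoter windows of the 7 genes with an entry, in bases from the RefSeq start (dotted line); squares are κB consensus matches and diamonds CRE half-sites. κB matches appear in 5 of the 7 genes, and lie between 106 bases before and 12 bases after the start except in the later 2 windows of *Nfkb2*.

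The same windows held no C/EBP motif (TTGCNNAA, either strand) in any of the 7 genes, against 10.1% of tested genes with a window. The cyclic AMP response element CRE (TGACGTCA), bound by factors activated downstream of β-adrenergic receptors, was found in 0 of 7, against 3.91% of tested genes. Its half-site TGACG, which any full element also contains, was found in 3 of 7, *Rel*, *Nfkb2* and *Nfkbib*, against 37.5% of tested genes. These letters may lie outside the windows read.

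Among the subunits with an activation domain, *Rel* and *Relb* were about 2-fold higher after Cebpb siRNA and *Rela* much less so. Library values below are given in the order experiment 1 replicates 1 and 2, then experiment 2 replicates 1 and 2. *Rel*, encoding c-Rel (chromosome 11, 23736847 to 23770970), stood at 29.4, 31.6, 28.9 and 28.4 RPM with control siRNA and at 58.8, 55.3, 61.9 and 58.6 RPM with Cebpb siRNA. With isoproterenol it stood at 27.2, 32.1, 28.5 and 28.6 RPM and at 66.7, 58.9, 67.4 and 68.8 RPM. The lowest Cebpb siRNA library lay 23.7 RPM above the highest control library without isoproterenol and 26.9 RPM above it with isoproterenol. Its log2 fold change was 1.07 ± 0.07 (SE; adjusted p = 4.08e-11) without isoproterenol and 1.24 ± 0.07 (adjusted p = 3.54e-12) with it. By p-value *Rel* ranked 414th and 283rd of the 11060 genes tested, the highest rank of the 10 genes in each comparison.

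*Relb*, whose product pairs mainly with p52 in the non-canonical pathway (chromosome 7, 19606217 to 19629438), stood at 16.7, 17.4, 15.98 and 15.1 RPM with control siRNA. Its Cebpb siRNA libraries stood at 33.9, 30.3, 35.9 and 46.4 RPM. With isoproterenol the values were 18.7, 17.7, 18.5 and 17.2 RPM and then 33.5, 31.2, 39.7 and 32.5 RPM. The value of 46.4 RPM came from the shallowest library, and the gap between the groups was 12.9 RPM without and 12.4 RPM with isoproterenol. The fitted log2 fold change was 1.24 ± 0.11 (adjusted p = 2.75e-09) without and 0.98 ± 0.11 (adjusted p = 8.81e-08) with isoproterenol. Without the shallowest library the first value was 1.11 (adjusted p = 9.11e-10).

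*Rela* (chromosome 19, 5637483 to 5648130), which encodes the activating partner of the classical p50 dimer, moved least among the genes that passed the test. It stood at 69.7, 63.3, 72.4 and 68.8 RPM with control siRNA and at 73.5, 73.7, 84.4 and 79.5 RPM with Cebpb siRNA. With isoproterenol it stood at 62.1, 67.3, 68.1 and 64.6 RPM and at 69.3, 71.6, 83.3 and 74.8 RPM. The groups did not overlap in either state, but the gap between them was only 1.05 and 1.24 RPM. Fitted log2 fold changes were 0.27 ± 0.06 (adjusted p = 0.000573) and 0.25 ± 0.06 (adjusted p = 0.000887). In experiment 1 alone the change with isoproterenol was 0.17 and did not pass (adjusted p = 0.0665).

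The 2 precursor genes both increased, *Nfkb2* more than *Nfkb1* in fitted size. *Nfkb2* (chromosome 19, 46304320 to 46312385), the source of p52, stood at 30.1, 26.7, 28.7 and 26.1 RPM with control siRNA and at 39.5, 38.4, 41.6 and 45.7 RPM with Cebpb siRNA. With isoproterenol the values were 28.6, 31.8, 24.8 and 28.4 RPM, then 39.8, 38.8, 47.3 and 47.9 RPM. No control library reached a Cebpb siRNA library. *Nfkb2* thus had a log2 fold change of 0.65 ± 0.09 (adjusted p = 2.04e-06) without and 0.68 ± 0.09 (adjusted p = 1.06e-06) with isoproterenol. The end of *Nfkb2* overlaps *Psd* on the other strand, and the sources used here do not say whether counting used strand.

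*Nfkb1* (chromosome 3, 135584655 to 135691547), the source of p50, stood at 48.4, 53.3, 52.8 and 55.5 RPM with control siRNA and at 62.7, 62.7, 69.1 and 76.8 RPM with Cebpb siRNA. Its control libraries with isoproterenol were tightly grouped at 53.8, 53.7, 53.6 and 53.6 RPM, and the Cebpb siRNA libraries with isoproterenol stood at 72.2, 69.4, 67.2 and 65.4 RPM. Every Cebpb siRNA library was above every control library. For *Nfkb1* the log2 fold change was 0.45 ± 0.07 (adjusted p = 1.21e-05) without and 0.42 ± 0.07 (adjusted p = 2.92e-05) with isoproterenol.

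The 3 cytoplasmic inhibitors differed from one another: *Nfkbie* was more than 2-fold higher after Cebpb siRNA, *Nfkbia* 1.52-fold and 1.22-fold higher, and *Nfkbib* did not pass the test. *Nfkbia* (chromosome 12, 55489410 to 55492647), whose product IκBα is the fast feedback inhibitor of the pathway, stood at 246, 230, 257 and 250 RPM with control siRNA. Its Cebpb siRNA libraries stood at 319, 351, 345 and 396 RPM. With isoproterenol the values were 264, 289, 258 and 292 RPM and then 314, 316, 342 and 310 RPM. The gap between the groups was 61.4 RPM without and 17.8 RPM with isoproterenol. In the fit *Nfkbia* rose on the log2 scale by 0.61 ± 0.06 (adjusted p = 2.10e-08) without and 0.28 ± 0.06 (adjusted p = 0.000392) with isoproterenol.

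*Nfkbie* (chromosome 17, 45555703 to 45563169) encodes IκBε, an inhibitor made later than IκBα in the response. It stood at 14.0, 13.2, 12.2 and 12.01 RPM with control siRNA and at 23.5, 25.1, 33.3 and 27.9 RPM with Cebpb siRNA. With isoproterenol it stood at 18.7, 21.1, 17.6 and 13.5 RPM and at 26.6, 31.3, 47.3 and 46.1 RPM. The highest values of all 16 libraries, 47.3 and 46.1 RPM, were both from experiment 2. Its log2 fold change was 1.17 ± 0.16 (adjusted p = 3.49e-06) without and 1.13 ± 0.16 (adjusted p = 4.85e-06) with isoproterenol.

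*Nfkbib* (chromosome 7, 28758251 to 28767512), encoding IκBβ, was the only one of the 10 genes whose groups overlapped in both siRNA comparisons. It stood at 22.3, 20.5, 26.2 and 23.1 RPM with control siRNA and at 19.6, 21.4, 24.7 and 23.1 RPM with Cebpb siRNA. With isoproterenol the values were 21.3, 24.5, 24.5 and 27.3 RPM, then 20.1, 23.7, 28.3 and 23.0 RPM. The log2 fold change of 0.04 ± 0.08 had a 95% interval of −0.13 to 0.20 without isoproterenol, and that of 0.02 ± 0.08 an interval of −0.14 to 0.19 with it. Both intervals overlap that of *Rela* without isoproterenol, 0.14 to 0.39, and a difference between the 2 genes was not tested. The end of *Nfkbib* overlaps *Ccer2* on the other strand.

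Both nuclear IκB-like genes were higher after Cebpb siRNA, *Bcl3* by the largest factor of the 10 genes. *Bcl3* (chromosome 7, 19808462 to 19822770), a cofactor of p50 and p52, stood at 3.31, 2.46, 4.52 and 3.53 RPM with control siRNA and at 7.34, 8.84, 8.50 and 10.4 RPM with Cebpb siRNA. With isoproterenol it stood at 4.85, 3.10, 5.09 and 4.38 RPM and at 8.83, 9.14, 10.3 and 13.2 RPM. These values rest on 56 to 269 reads per library, the fewest of the 10 genes, so that counting error is larger here than for the others. On the log2 scale the change was 1.45 ± 0.15 (adjusted p = 3.16e-08) without and 1.32 ± 0.15 (adjusted p = 1.18e-07) with isoproterenol.

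*Nfkbiz* (chromosome 16, 55811375 to 55838899), whose product IκBζ is needed for a set of secondary response genes, stood at 12.8, 16.9, 10.0 and 11.7 RPM with control siRNA. Its Cebpb siRNA libraries stood at 27.7, 28.4, 20.4 and 24.8 RPM. With isoproterenol the values were 17.5, 15.6, 14.5 and 12.2 RPM and then 27.0, 26.5, 20.6 and 21.7 RPM. Experiment 1 ran higher than experiment 2 within each of the 4 groups, and no control library reached a Cebpb siRNA library. *Nfkbiz* rose on the log2 scale by 1.08 ± 0.10 (adjusted p = 6.34e-09) without and 0.75 ± 0.10 (adjusted p = 1.47e-06) with isoproterenol.

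**Figure D3:**
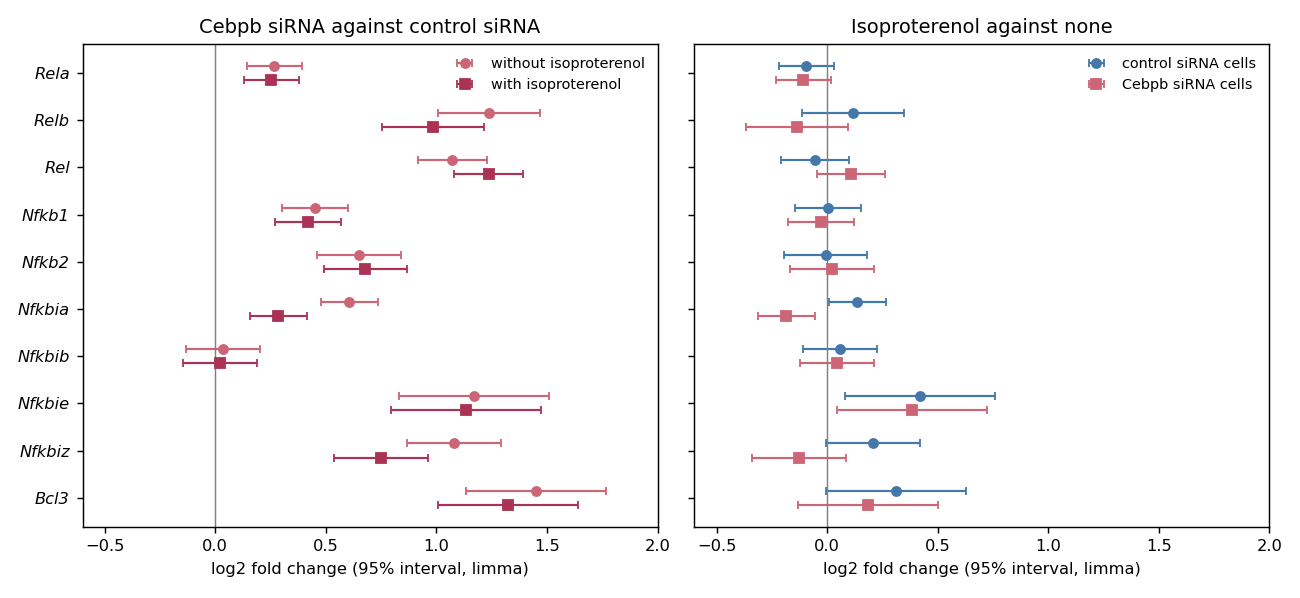
Fitted log2 fold changes of the 10 genes with 95% intervals from limma, for Cebpb siRNA against control siRNA (left) and isoproterenol against none (right). On the left, 9 genes lie above 0 in both states; on the right, *Nfkbie* reaches 0.42 and 0.38 and none of the 10 genes passed the threshold after adjustment.

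Isoproterenol gave no change in the 10 genes that passed the test, in either siRNA state. In control siRNA cells 0 of 10 passed in limma, against 1.65% of all genes tested, and 2 of 10 had an unadjusted p under 0.05, *Nfkbie* and *Nfkbia*. By p-value *Nfkbie* ranked 703rd and *Nfkbia* 1039th, so at least 1039 of the 11060 genes tested had an unadjusted p under 0.05. In Cebpb siRNA cells 0 of 10 passed, against 5.48% of all genes tested, and the same 2 genes had an unadjusted p under 0.05. There *Nfkbia* ranked 852nd and *Nfkbie* 1643rd, so at least 1643 of the genes tested had an unadjusted p under 0.05. The voom variant of limma on reads recovered from the values also called 0 of 10 in each. *Nfkbie* had a log2 fold change of 0.42 ± 0.16 (adjusted p = 0.286) in control siRNA cells and 0.38 ± 0.16 (adjusted p = 0.196) in Cebpb siRNA cells. In control siRNA cells 3 of the 4 isoproterenol libraries of *Nfkbie* lay above all 4 without it, and the fourth, at 13.5 RPM, lay among them. That library came from experiment 2, where the control siRNA libraries without isoproterenol stood at 12.2 and 12.01 RPM. Within each experiment, both isoproterenol libraries of *Nfkbie* lay above both without it, in control and in Cebpb siRNA cells. How many of all genes tested do so was not counted. With only the 8 libraries compared in the fit, *Nfkbie* passed in both states (adjusted p = 0.00507 and 0.0407). For *Bcl3* and *Nfkbiz* the values in control siRNA cells were 0.31 ± 0.15 (adjusted p = 0.458) and 0.21 ± 0.10 (adjusted p = 0.470), with overlapping groups.

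*Nfkbia* had fitted values of opposite sign in the 2 states. In control siRNA cells its log2 fold change with isoproterenol was 0.14 ± 0.06 (adjusted p = 0.405). In unscaled RPM the 4 libraries lay just above the 4 without it, from 258 against at most 257 RPM. *Nfkbia* was the only one of the 10 genes with no overlap there, against 3.8% of all genes tested that were higher without overlap. The log2 scaling of these 2 closest libraries was 0.0438 with and 0.0292 without isoproterenol, and in the scaled values of the fit the groups overlapped. In Cebpb siRNA cells the value was −0.18 ± 0.06 (adjusted p = 0.0916), with overlapping groups. The difference between these isoproterenol effects was −0.32 ± 0.09 (adjusted p = 0.197). It ranked 77th of 11060 genes by p-value and did not pass. For the difference 0 of 10 genes passed, against 0.235% of all genes tested, and voom called 0. In limma 2 of 10 had an unadjusted p under 0.05, *Nfkbia* and *Nfkbiz*. *Nfkbiz* ranked 489th, so at least 489 of the 11060 genes had an unadjusted p under 0.05. The value for *Nfkbiz* was −0.33 ± 0.14 (adjusted p = 0.710). The siRNA effects without and with isoproterenol were therefore not shown to differ for any of the 10 genes.

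In the order of group means, the control and the Cebpb siRNA groups formed 2 pairs for every gene except *Nfkbib*. The step between the pairs was free of overlap for *Relb*, *Rel*, *Nfkb1*, *Nfkb2*, *Nfkbia*, *Nfkbie*, *Nfkbiz* and *Bcl3*. How many of all genes tested have such a step was not counted, so this order is a description only. For *Rela* the highest control siRNA library (72.4 RPM) exceeded the lowest Cebpb siRNA library with isoproterenol (69.3 RPM). Within a pair the groups overlapped for these 9 genes, except the control pair of *Nfkbia*, which was free of overlap in unscaled RPM only.

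The effect of Cebpb siRNA had the same sign in both experiments for the 9 genes that were higher. Averaged over the isoproterenol states, it was 0.74 in experiment 1 and 1.56 in experiment 2 for *Nfkbie* on the log2 scale. That difference of 0.82 ± 0.13 was tested with a term for each experiment, a test chosen after these values were seen, and passed (adjusted p = 0.00222). It was the only one of the 10 genes to pass, against 0.615% of all genes tested. *Nfkb2* had 0.48 and 0.85, a difference of 0.38 ± 0.10 (adjusted p = 0.108). *Relb* had 0.92 and 1.30, a difference of 0.37 ± 0.14 (adjusted p = 0.257). *Bcl3* had 1.41 and 1.36 and *Rel* 1.05 and 1.26. The labels do not say in what the experiments differed.

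**Figure D4:**
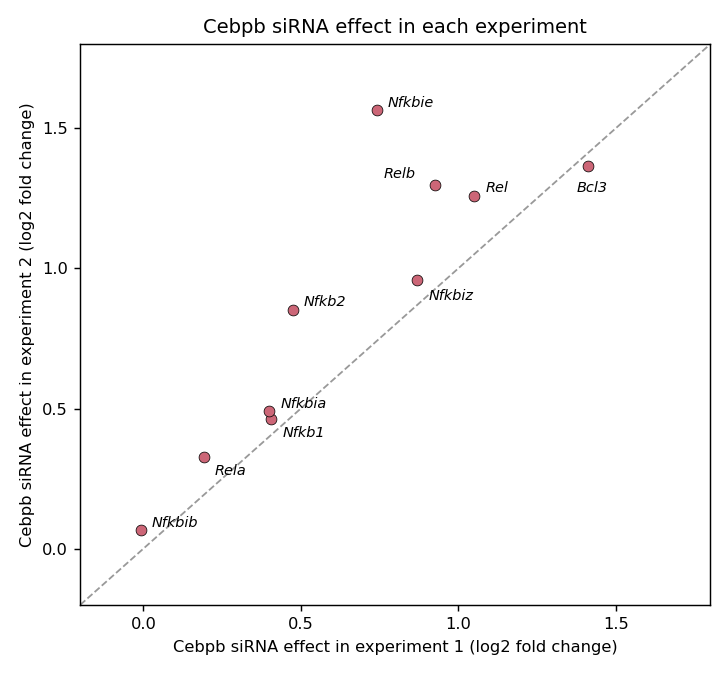
Effect of Cebpb siRNA (log2 fold change, averaged over the states without and with isoproterenol) in experiment 1 (horizontal) and experiment 2 (vertical), one point for each of the 10 genes; the dashed line marks equal effects. *Nfkbie* lies farthest from the line, at 0.74 and 1.56.

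Genes that act above and beside the 10 genes were counted from 5 lists, to be read against the 30.9% of all genes tested that were higher and the 30.4% that were lower without isoproterenol, and 31.6% and 30.3% with it. Of 16 genes for IκB kinase and the kinases above it, 5 were higher and 7 lower without isoproterenol, with a median log2 fold change of −0.11, and 5 and 7 with it. *Ikbkg*, encoding the regulatory subunit NEMO, fell by 0.77 ± 0.12 on the log2 scale (adjusted p = 7.58e-06). *Ikbke*, a kinase better known from interferon induction, had −0.63 ± 0.10 without and −1.09 ± 0.10 with isoproterenol, and *Tab3*, an adaptor of the kinase TAK1, −0.91 ± 0.12 and −0.99 ± 0.12. *Ripk1*, a scaffold kinase of the TNF receptor, was higher by 0.45 ± 0.06 and 0.37 ± 0.06. None of the 16 passed for isoproterenol.

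Of 17 tested ubiquitin ligases and adaptors, 9 were higher and 1 lower without isoproterenol, with a median of 0.28, and 8 and 1 with it. *Tank*, a TRAF-binding adaptor, had log2 fold changes of 1.06 ± 0.08 and 1.03 ± 0.08, and *Birc3*, the ligase cIAP2 and itself a known NF-κB target, 0.99 ± 0.10 and 0.80 ± 0.10. *Myd88*, the adaptor of Toll-like receptors, had 0.74 ± 0.07 and 0.72 ± 0.07. The smallest of the 4 named here was *Skp1a*, a subunit of the ligase that marks IκB, at 0.30 ± 0.05 and 0.38 ± 0.05.

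Of 12 tested feedback inhibitors and deubiquitinases, 5 were higher and 5 lower in both comparisons. *Cyld*, which removes the ubiquitin chains that carry the signal, had log2 fold changes of 0.46 ± 0.06 and 0.59 ± 0.06. *Otulin*, which cuts linear chains, had −0.46 ± 0.06 and −0.29 ± 0.06, and *Irak3*, an inhibitory kinase-like protein, −0.57 ± 0.10 and −0.89 ± 0.10. *Trib3*, better known as a stress-induced gene, fell most, with −1.69 ± 0.08 and −1.80 ± 0.08. *Tnfaip3*, encoding the inhibitor A20, had 0.37 without isoproterenol and did not pass (adjusted p = 0.152). It is named although outside the rule for naming genes and was chosen after its value was seen.

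Among 19 other IκB-like and NF-κB-binding proteins, 4 were higher and 8 lower without isoproterenol and 4 and 5 with it. *Ankra2* had −1.34 ± 0.11 and −1.49 ± 0.11, and *Nkap* −0.74 ± 0.07 and −0.58 ± 0.07. *Crebbp*, a histone acetyltransferase that serves RelA and many other factors, had 0.41 ± 0.06 and 0.57 ± 0.06. In this list 2 genes passed for isoproterenol in Cebpb siRNA cells, where 5.48% of all genes tested passed. They were *Crebbp* at 0.20 ± 0.06 (adjusted p = 0.0410) and *Pdlim2*, a ligase for RelA, at 0.32 ± 0.08 (adjusted p = 0.0277). Both depended on the processing: *Crebbp* passed in 13 and *Pdlim2* in 20 of 30 alternatives. None passed in control siRNA cells.

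Known targets of NF-κB moved in both directions. Of 39 tested, 23 were higher and 9 lower after Cebpb siRNA without isoproterenol, with a median log2 fold change of 0.36, and 16 were higher and 13 lower with it, with a median of 0.15. *Traf1*, a survival adaptor, averaged 20.7 ± 0.836 RPM (SD, n = 4) with control siRNA and 73.2 ± 13.1 RPM with Cebpb siRNA, a log2 fold change of 1.89 ± 0.09 (SE), and 1.83 ± 0.09 with isoproterenol. *Il1rn*, encoding the interleukin-1 receptor antagonist, had 2.29 ± 0.08 and 1.64 ± 0.08, and *Junb*, an AP-1 subunit, 1.17 ± 0.06 in both. Of the genes that fell, the chemokine gene *Ccl3* averaged 199.7 ± 14.3 RPM with control siRNA and 37.8 ± 5.69 RPM with Cebpb siRNA, with log2 fold changes of −2.33 ± 0.08 and −2.80 ± 0.08. *Ccl4*, another chemokine gene, had −0.94 ± 0.06 and −1.51 ± 0.06. Not all chemokine genes fell: *Ccl2* and *Cxcl2*, named after their values were seen, were higher without isoproterenol by 0.74 ± 0.17 (adjusted p = 0.000798) and 0.62 ± 0.13 (adjusted p = 0.000531). With isoproterenol they had 0.32 ± 0.17 (adjusted p = 0.108) and −0.04 ± 0.13 (adjusted p = 0.820), and neither passed.

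Isoproterenol moved some of these 39 targets in control siRNA cells, where 8 were higher and 1 lower, against 134 and 49 of all 11060 genes tested. *Ier3*, an early stress-response gene, averaged 82.0 ± 9.23 RPM without and 134 ± 14.7 RPM with isoproterenol, a log2 fold change of 0.68 ± 0.08. *Il1b*, at 0 in every control siRNA library without isoproterenol, averaged 3.92 ± 0.865 RPM with it. In Cebpb siRNA cells 4 targets were higher and 6 lower with isoproterenol, against 332 and 274 of all genes tested. Among them were *Ier3* at 0.57 ± 0.08 and *Ccl4* at −0.55 ± 0.06. The isoproterenol effects differed between the siRNA states for 2 of 39 targets, against 0.235% of all genes tested. These were *Ccl4*, by −0.58 ± 0.09 (adjusted p = 0.00232), and *Il1rn*, by −0.65 ± 0.11 (adjusted p = 0.00403). Each passed in 26 of 29 alternatives.

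**Figure D5:**
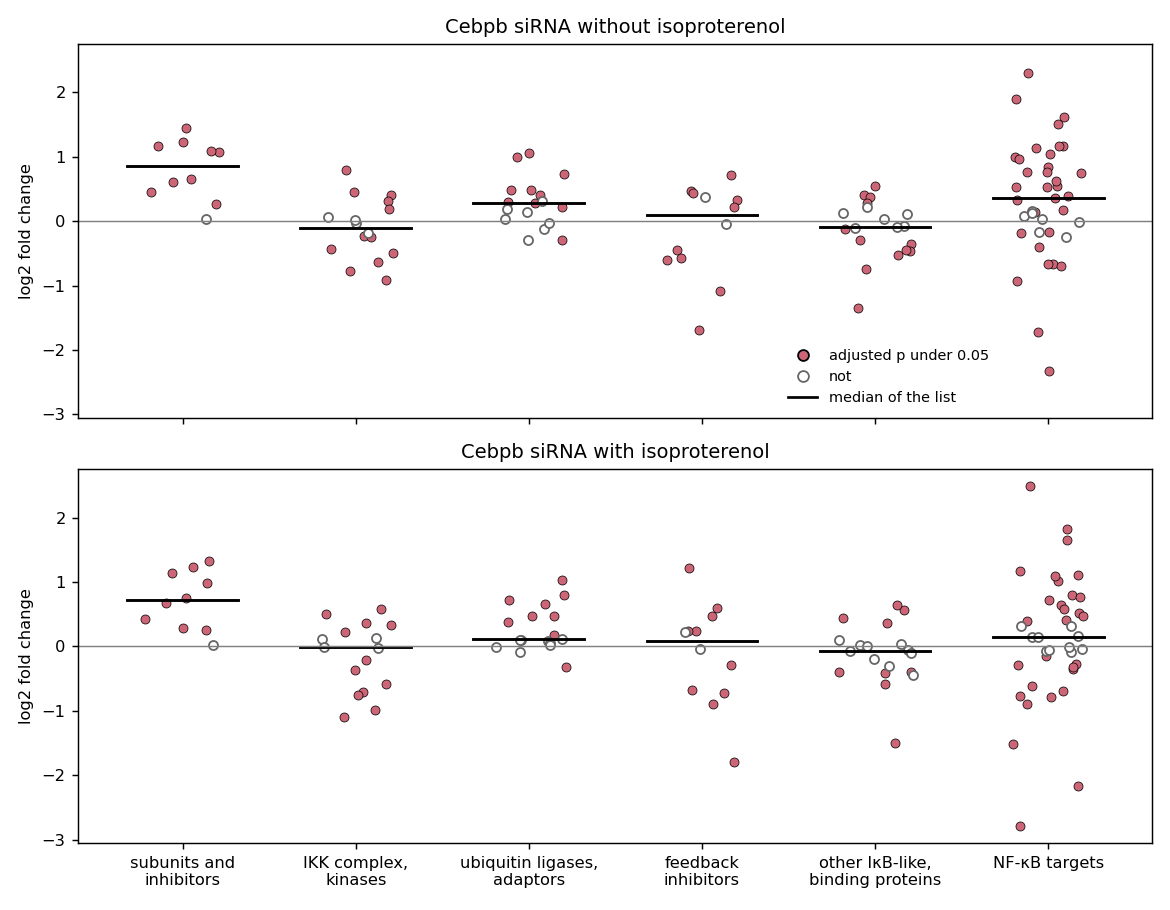
Log2 fold changes after Cebpb siRNA without (top) and with (bottom) isoproterenol for the 10 subunit and inhibitor genes and for 5 lists of pathway genes; filled points passed the threshold and black lines are medians. The 10 genes have medians of 0.86 and 0.71, and the lists medians between −0.11 and 0.36.

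The genes whose pattern over the 16 libraries was most like that of each of the 10 were found by the root mean square difference of centred log2 values, among 6702 genes of at least 10 RPM. Nearest to *Rel* were *Mtmr14* (0.0861), *Tulp4* (0.0915) and *Fopnl* (0.0970), against a root mean square of 0.585 for *Rel* itself around its own mean. Nearest to *Relb* were *Parp11* (0.115), *Ptafr* (0.121) and *Slc12a5* (0.125). Nearest to *Bcl3* were *Sgk1* (0.184), *Msrb1* (0.190) and *Parp9* (0.197), and nearest to *Nfkbie* *Plekhg3* (0.216), *Lrrk2* (0.217) and *Fxyd2* (0.226). *Nfkbiz* was nearest to *Rnf13* (0.114), *Nfkb2* to *Swap70* (0.0950), *Nfkb1* to *Capza2* (0.0596), *Nfkbia* to *Rb1* (0.0724), *Rela* to *Zbtb7a* (0.0494) and *Nfkbib* to *Lias* (0.0632). Within the family the closest pair was *Nfkb1* and *Nfkbia* at 0.108. *Rela* was nearest to *Nfkb1* at 0.140, *Nfkbib* to *Rela* at 0.155, and *Rel* and *Relb* to each other at 0.170. These distances are to be read against each gene's own root mean square around its mean. That was 0.151 for *Rela*, 0.0880 for *Nfkbib*, 0.585 for *Rel* and 0.579 for *Relb*. *Nfkbib* thus lay farther from *Rela* than from its own mean. For none of the 10 genes was another family gene among the 3 nearest. With so few family genes among 6702 candidates this was likely in advance, and *Bcl3*, with a mean under 10 RPM, was no candidate. It therefore does not show whether the family moves together.

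The 7-base word AACTTGT was looked for in the 3′ UTRs of the 10 genes because, in earlier results of these libraries, genes that hold it were lower after Cebpb siRNA. In the fit used here 48.9% of 1555 tested genes with the word were lower without isoproterenol, against 25.9% of 6144 genes without its 6-base core. These are the libraries from which the word was taken, so the shares describe them and are no independent check. The 2 sets were not matched for 3′ UTR length. The word occurred in 2 of the 10 genes, *Rel* and *Nfkbiz*, and in 15.4% of 10127 tested genes with an annotated 3′ UTR. *Nfkbia* held the core alone. The 2 sites with the word are shown with the word in capitals.
Rel: tacacagagaaAACTTGTctcaaaaaacaa
Nfkbiz: acccacaaagcAACTTGTactgtgtaatcg
Both genes were about 2-fold higher after Cebpb siRNA without isoproterenol. The other 7 genes that were higher do not hold the word in the 3′ UTR searched. The sources used here do not state which bases the siRNA has.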

How the data were processed

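The 16 libraries were made from total RNA with the 3′ FWD version of Lexogen's QuantSeq kit, per the labels' protocols. The submitters' processing notes name STAR 2.5.3a and GRCm38. The deposited values are on a log2 scale. From the values, they are log2 of reads per 10⁶ reads of all kinds, with 1 RPM or less listed as 0, since 100% of them gave whole reads within 0.1 read. The sources used here do not state the counting tool or its use of strand. The values are tags near the 3′ end, so levels are not compared between genes.

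Scaling used a trimmed mean of log ratios (30% by ratio, 5% by level), and all libraries were given a common floor of 1.07 RPM. The 11060 genes that passed this floor in 4 or more libraries were fitted with limma 3.58.1 (R 4.3.3; trend, robust), with group and experiment as terms. Every adjusted p is from limma, by Benjamini-Hochberg over all genes tested. RPM in the text are unscaled. Errors of RPM are SDs, those of log2 fold changes SEs.

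The 10 genes, the pathway lists and the tests were chosen with earlier results of these data known. All 10 are named. Each list adds up to 4 genes by smallest adjusted p in Cebpb siRNA without isoproterenol and up to 2 that passed in each other comparison. Of these, 1 gene is not reported here. Alternatives covered scaling, filter, floor, pseudocount, terms, samples in the fit, voom and left-out libraries. The design text describes 4 biological replicates per condition, and replicates of an experiment differed by 5.26 to 14.3 chi-square units per degree of freedom. Positions and 3′ UTRs (the longest of a gene) are from GENCODE vM21 on GRCm38. The fit was also run on simulated data with few changed genes and no difference between the experiments. It was thus not checked at the share of changes seen after Cebpb siRNA.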

Additional observations from a re-analysis of the deposited data

Results flagged for a closer look

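The effect of Cebpb siRNA on *Nfkbie* differed between the experiments by 0.821 on the log2 scale, from 0.74 in experiment 1 to 1.56 in experiment 2, by a test of the difference itself in limma (adjusted p = 0.00222). In none of the 40 sets of 4 libraries (10 genes in 4 groups) did 1 library stand apart from the others by Dixon's criterion.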

How the results depend on the processing

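The number of the 10 genes higher after Cebpb siRNA was 9 without isoproterenol in all 30 alternatives, and 8 or 9 with it. The 1 loss was *Rela* in experiment 1 alone (adjusted p = 0.0665). For isoproterenol the count was 0 in 28 of 30 alternatives in each siRNA state. In control siRNA cells it was 1 (*Nfkbie*) in experiment 1 alone and with only the groups compared. In Cebpb siRNA cells it was 1 with quantile normalization (*Nfkbia*, −0.21, adjusted p = 0.0483) and with only the groups compared (*Nfkbie*). The main fit had a term for the experiment that all groups shared, while the siRNA effect on *Nfkbie* differed between the experiments by 0.821. What part this had in the *Nfkbie* calls, and the cause of the other changes, was not tested. For the difference of the isoproterenol effects it was 0 in all 29 alternatives. With a replicate block the counts were 9 and 9 for the siRNA and 0, 0 and 0 for the isoproterenol comparisons. Libraries with the same number shared little (correlations of deviations from −0.192 to 0.23), so the numbers were not taken to pair them. With values scaled as deposited, the share of higher genes among all genes called for isoproterenol went from 73.2 to 84.3% in control siRNA cells and from 54.8 to 74.8% in Cebpb siRNA cells. Over all genes, the calls for isoproterenol, which stand behind the shares given beside the 10 genes, moved more. The 183 in control siRNA cells became 44 with no term for the experiment, 114 and 21 in experiments 1 and 2 alone, 526 with only the groups compared, 116 without trend and robust estimation, and 100 to 263 when 1 library was left out. The 606 in Cebpb siRNA cells became 197, 251, 145 and 282 under the first 4 of these. The 26 for the difference became 2 to 17 under 6 alternatives. Depth limits *Bcl3* most, with as few as 56 reads in a library.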
